A study of Mus musculus with 6 samples.

Results

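Mammalian testis carries its own versions of several parts of the mitochondrial respiratory chain. The 8 genes described here form 4 pairs, each with a testis isoform and the somatic isoform it stands beside: Cyct and Cycs for cytochrome c, and Cox6b2 and Cox6b1, Cox7b2 and Cox7b, and Cox8c and Cox8a for small subunits of cytochrome c oxidase. They were taken by symbol and Ensembl identifier, 8 of the 53700 genes in the count files, and all 8 had enough reads to be tested. RNA from whole testes of mice at postnatal day 45 was sequenced in 6 libraries, 3 from mice with the genotype MSL3 WT (WT) and 3 from mice with the genotype MSL3 cKO (cKO), a conditional knockout made with a floxed allele. Both groups carry the strain label Msl3em1Forni/C57BL/6J. The recombinase and the cells in which it acts are not given in the sources used here. The study's question was whether spermatogenesis is altered when Msl3 function is lost.

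Cytochrome c is a small haem protein that carries electrons from complex III to cytochrome c oxidase (complex IV), which passes them to oxygen. Once released into the cytosol it binds Apaf1 and starts apoptosis. In male germ cells the testis form encoded by Cyct appears during meiosis, whereas Cycs serves somatic tissues and the early germ cells. In complex IV the catalytic core is encoded by mitochondrial DNA and is surrounded by nuclear-encoded subunits. Subunit 6B lies on the side of the membrane that faces cytochrome c, and subunits 7B and 8 are small proteins that each span the membrane.

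The coding sequences are shown first, because the counts can be read as isoform levels only where a read tells the members of a pair apart. Each stretch is 75 bases, the length of a read, or the longest stretch without a gap where that was shorter. Sequences are from the GENCODE M21 transcripts, 5′ to 3′, and capitals mark the bases at which the members of a pair differ.
Cyct: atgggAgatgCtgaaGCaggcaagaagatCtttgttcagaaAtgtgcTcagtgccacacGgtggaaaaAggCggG
Cycs: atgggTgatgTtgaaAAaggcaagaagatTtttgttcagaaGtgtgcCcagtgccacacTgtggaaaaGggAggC
Cox6b2: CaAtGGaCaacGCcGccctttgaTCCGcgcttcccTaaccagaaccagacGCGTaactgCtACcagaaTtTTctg
Cox6b1: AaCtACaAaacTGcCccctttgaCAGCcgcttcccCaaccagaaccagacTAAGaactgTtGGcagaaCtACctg
Cox7b2: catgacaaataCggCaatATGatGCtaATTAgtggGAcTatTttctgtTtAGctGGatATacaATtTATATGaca
Cox7b: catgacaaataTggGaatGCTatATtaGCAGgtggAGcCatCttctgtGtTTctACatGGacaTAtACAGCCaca
Cox8c: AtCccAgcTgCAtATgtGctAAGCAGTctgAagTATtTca
Cox8a: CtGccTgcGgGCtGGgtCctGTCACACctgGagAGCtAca

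The cytochrome c pair is the closest, with 76.2% identity over 315 aligned coding bases and no gap, and 11 differences in the first 75 bases. The Cox7b pair shares 65.4%, the Cox6b pair 64.2% and the Cox8 pair 58.9% of aligned coding bases. The longest identical run within a pair is 14 bases, in the Cyct and Cycs alignment and in that of Cox6b2 and Cox6b1. A read inside a coding sequence therefore spans several differences. Windows of 75 bases were taken from the longest transcript of each of the 8 genes. For 7 of them no window was shared with a transcript of any other annotated gene. The scan did not cover exon bases outside that transcript, which for Cox6b2 has 585 bases where the merged exons have 1108. Cycs was the exception, with 797 of its 3049 windows (26.1%) also present in other genes, all of them in Gm10053 and some in further genes too. The files set reads that map to several places apart and count them to no gene, so the Cycs count leaves out reads that match those windows elsewhere in the genome. The 5 genes that share windows with Cycs held between 0 and 3 reads each in a library.

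The members lie apart in the mouse genome (build mm10, positions from GENCODE M21), and no annotated gene overlaps any of them. Cyct (ENSMUSG00000056436) lies on chromosome 2 from 76353942 to 76360450, and Cycs (ENSMUSG00000063694) on chromosome 6 from 50562563 to 50566538. Cox6b2 (ENSMUSG00000051811) and Cox6b1 (ENSMUSG00000036751) are both on chromosome 7, from 4751792 to 4753094 and from 30616861 to 30626151. Cox7b2 (ENSMUSG00000049387) is on chromosome 5 from 71442824 to 71548205, and its somatic partner Cox7b (ENSMUSG00000031231) on chromosome X from 106015700 to 106022450. Cox7b is the only X-linked member, and X-linked genes are silenced in spermatocytes during meiosis. Cox8c (ENSMUSG00000043319) is on chromosome 12 from 102899316 to 102900526, and Cox8a (ENSMUSG00000035885) on chromosome 19 from 7215153 to 7217616.

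The libraries held 56991431 to 73766444 reads assigned to genes. Msl3, the targeted gene, had 942, 1226 and 990 reads in the WT libraries and 1170, 829 and 923 in the cKO libraries, a log2 fold change of -0.12 (SE 0.088, edgeR adjusted p 0.551). The groups are therefore named by their labels, and every difference below is that of libraries labelled cKO against libraries labelled WT. All 54 marker genes of 9 germ cell and somatic lists had reads in all 6 libraries, and those of elongating spermatids summed to 13814 to 17857 CPM (reads scaled to a common library size). In RNA of whole testis, fewer cells of a type and less RNA per cell cannot be told apart.

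Testis isoforms were the more abundant member of every pair in all 6 libraries. Counted per library, there were 4.88 to 7.10 reads of Cyct for each read of Cycs, 8.24 to 11.0 of Cox6b2 for each of Cox6b1, 12.6 to 17.1 of Cox7b2 for each of Cox7b, and 14.5 to 17.9 of Cox8c for each of Cox8a. Levels of different genes were compared per length, as CPM per kilobase of merged exons. On that scale Cox8c was the highest, at 545.0 ± 12.5 (SD, n = 3) in WT and 508.9 ± 30.3 (SD, n = 3) in cKO libraries. Cox6b2 came next at 173 ± 3.98 (SD, n = 3) in WT and 174 ± 14.8 (SD, n = 3) in cKO. The Cox7b2 level per kilobase was 167 ± 33.5 (SD, n = 3) in WT, where its libraries overlapped those of Cox6b2, and 139 ± 17.6 (SD, n = 3) in cKO, where they did not. Cyct was the lowest testis isoform, at 90.7 ± 11.2 (SD, n = 3) and 77.4 ± 5.16 (SD, n = 3).

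All 4 somatic isoforms lay below Cyct on the per-kilobase scale. Cox6b1 was at 31.1 ± 1.37 (SD, n = 3) in WT and 27.2 ± 3.18 (SD, n = 3) in cKO, and Cox8a at 24.1 ± 1.60 (SD, n = 3) and 23.2 ± 2.47 (SD, n = 3). Libraries of these 2 genes overlapped in cKO and not in WT. Cox7b followed at 5.73 ± 1.06 (SD, n = 3) and 4.19 ± 0.871 (SD, n = 3), and Cycs was the lowest at 2.81 ± 0.0457 (SD, n = 3) and 2.69 ± 0.426 (SD, n = 3). The order of the 8 means was the same in both groups. The Cycs value divides by 3404 bases of annotated exons, of which 315 are coding, whether or not the testis transcript holds them all. Cycs is also the only member whose longest transcript has windows shared with other genes (26.1%). Reads left out there lower its level and raise the ratio of Cyct to Cycs, by an amount that was not tested. Cox6b2 has 1108 bases of merged exons but a longest transcript of 585. With the longest transcript as the length, an alternative added later, the ratio of Cox6b2 to Cox6b1 per length in WT was 9.20 in place of 5.56.

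**Figure D1:**
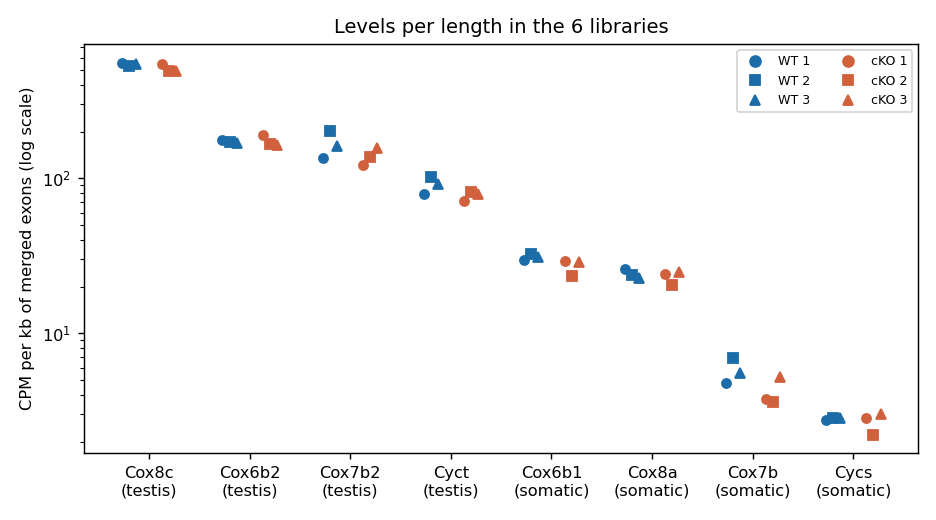
Level of each isoform in CPM per kilobase of merged exons, on a log axis, in the 3 WT (blue) and 3 cKO (orange) libraries, with a symbol per replicate number. The 4 testis isoforms lie above the 4 somatic isoforms in every library, from Cox8c at 545.0 to Cycs at 2.81 in the WT means.

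The comparison of cKO with WT was fitted over all genes with edgeR's quasi-likelihood test. None of the 8 members passed an adjusted p of 0.05, a threshold that 4 of 21902 tested genes (0.0183%) passed, 2 of them higher in cKO (0.00913%) and 2 lower (0.00913%). DESeq2 called 0 of the 8 as well, and 209 of the 11711 genes to which it gave an adjusted p. At an unadjusted p under 0.05 there were 2 of the 8, Cyct and Cox7b, both lower in cKO. That p was reached by 13.9% of all genes, 7.33% higher and 6.54% lower in cKO. The groups did not overlap for 1 of the 8, Cox6b1, against 18.9% of all genes; it was lower in cKO, as 8.85% of all genes were. Log2 fold changes were below 0 for 7 of the 8, with a median of -0.15, where 49.3% of all genes were below 0 and the median was 0.0031.

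Cyct, the germ cell cytochrome c, had 51.7, 66.3 and 60.3 CPM in WT libraries 1, 2 and 3 and 46.9, 53.4 and 51.9 CPM in cKO libraries 1, 2 and 3. WT 2 was the highest and cKO 1 the lowest, and WT 1 lay below cKO 2 and 3, so the groups overlapped. Its log2 fold change was -0.23 (SE 0.092, edgeR adjusted p 0.315), a cKO level of 85.3% of WT with 95% limits of 74.2% and 98.0%. Cycs, the somatic form, had 9.37, 9.63 and 9.65 CPM in WT and 9.62, 7.52 and 10.3 CPM in cKO. The WT libraries were close together and cKO 2 and 3 lay on either side of them. The log2 fold change of Cycs was -0.06 (SE 0.11, edgeR adjusted p 0.852), with 95% limits of 80.9% and 113.7% of WT, and it was 0.06 without cKO 2.

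Cox6b2, the testis form of the subunit that faces cytochrome c, had 196, 190.0 and 188 CPM in WT and 211, 183 and 183 CPM in cKO. The cKO libraries lay on both sides of the WT range. Its log2 fold change was 0.01 (SE 0.073, edgeR adjusted p 0.972), with 95% limits of 90.0% and 112.3% of WT, and its sign turned with library totals in place of TMM scaling (-0.02). Cox6b1, the somatic form, had 21.1, 23.1 and 21.9 CPM in WT and 20.6, 16.7 and 20.5 CPM in cKO. All 3 cKO libraries lay below the 3 WT libraries, by the least between cKO 1 and WT 1. The log2 fold change was -0.19 (SE 0.092, edgeR adjusted p 0.375), or 87.5% of WT with 95% limits of 76.1% and 100.5%, and it was -0.10 without cKO 2 and -0.06 after a correction for GC content and transcript length.

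Cox7b2, the testis form of subunit 7B, varied most among the testis isoforms, with 73.5, 109.5 and 88.0 CPM in WT and 65.8, 74.8 and 84.8 CPM in cKO. WT 2 stood highest and WT 1 lay below cKO 2 and 3. The log2 fold change was -0.27 (SE 0.13, edgeR adjusted p 0.383), with 95% limits of 68.4% and 101.2% of WT. Cox7b, the X-linked somatic form, had 5.82, 8.35 and 6.69 CPM in WT and 4.58, 4.38 and 6.30 CPM in cKO, and cKO 3 lay above WT 1. Its log2 fold change was -0.45 (SE 0.16, edgeR adjusted p 0.305), or 73.0% of WT with 95% limits of 57.3% and 93.0%, the largest difference of the 8 genes. Cox7b rested on the fewest reads, 245 to 542 in a library. In a fit without a filter on low counts, which called 757 of 36605 genes, Cox7b (edgeR adjusted p 0.0118) and Cox7b2 (edgeR adjusted p 0.0372) passed the threshold.

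Cox8c, the testis form of subunit 8, had the highest counts of the 8 genes, 12603 to 18175 reads in a library. Its level was 255, 244 and 249 CPM in WT and 249, 225 and 225 CPM in cKO. Only cKO 1 lay within the WT range. The log2 fold change was -0.10 (SE 0.067, edgeR adjusted p 0.532), with 95% limits of 84.4% and 103.4% of WT. Cox8a, the somatic form, had 16.0, 14.7 and 14.1 CPM in WT and 15.0, 12.6 and 15.5 CPM in cKO. Libraries cKO 1 and 3 lay within the WT range and cKO 2 below it. The log2 fold change was -0.06 (SE 0.095, edgeR adjusted p 0.828), with 95% limits of 83.2% and 110.8% of WT. Without cKO 2 the value for Cox8a was 0.03.

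**Figure D2:**
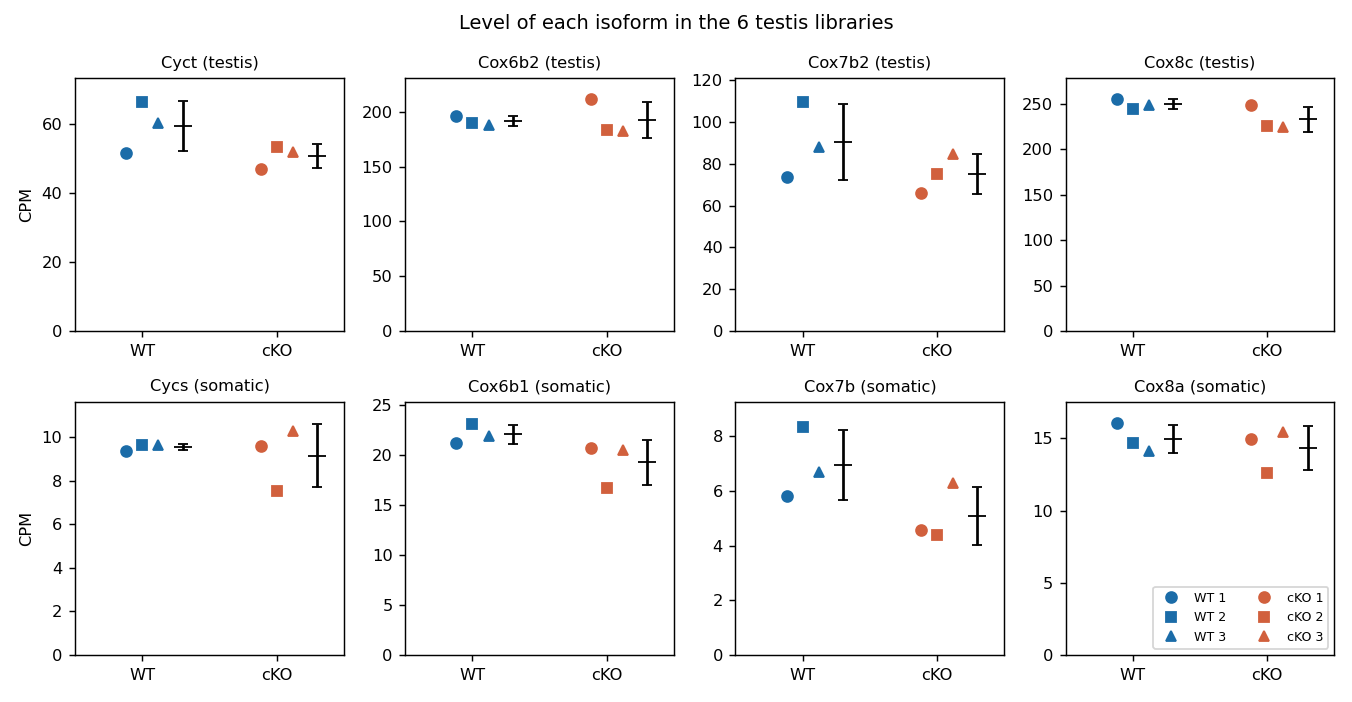
Level of each isoform in CPM (axis from 0) in the 3 WT (blue) and 3 cKO (orange) libraries, testis isoforms above and somatic isoforms below. Black bars are the mean and SD of 3 libraries. The groups overlap for 7 of the 8 genes, and the 3 cKO libraries lie below the 3 WT libraries for Cox6b1.

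The ratio of testis to somatic isoform within a library needs no scaling between libraries. For cytochrome c the ratio of Cyct to Cycs was 5.51, 6.88 and 6.25 in WT and 4.88, 7.10 and 5.03 in cKO, so the cKO libraries held both the highest and the lowest value. The mean log2 ratio was 2.63 ± 0.16 (SD, n = 3) in WT and 2.48 ± 0.30 (SD, n = 3) in cKO, a difference of -0.15 with an exact two-sided permutation p of 0.6. Without cKO 2 that difference was -0.32 (exact permutation p 0.2), and after the correction for GC content and transcript length it was -0.03 (exact permutation p 0.9). The smallest p that this test can give with 3 libraries a group is 0.1, so none of the 4 ratios could pass 0.05.

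Cox6b2 to Cox6b1 stood at 9.29, 8.24 and 8.58 in WT and 10.3, 11.0 and 8.91 in cKO, with cKO 3 inside the WT range. The mean log2 ratio was 3.12 ± 0.088 (SD, n = 3) in WT and 3.32 ± 0.15 (SD, n = 3) in cKO, a difference of 0.20 (exact permutation p 0.2). Cox7b2 to Cox7b was 12.6, 13.1 and 13.1 in WT and 14.4, 17.1 and 13.5 in cKO. This was the one pair whose groups did not overlap, with all 3 cKO ratios above the 3 WT ratios. Its mean log2 ratio was 3.70 ± 0.033 (SD, n = 3) in WT and 3.90 ± 0.18 (SD, n = 3) in cKO, a difference of 0.20 (exact permutation p 0.1, the smallest possible), and 0.10 without cKO 2. The error of this log2 ratio from read counting alone was 0.064 to 0.095 in a library, larger than the SD among the WT libraries.

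For subunit 8 the ratio of Cox8c to Cox8a was 15.9, 16.6 and 17.6 in WT and 16.6, 17.9 and 14.5 in cKO. The mean log2 ratio was 4.06 ± 0.074 (SD, n = 3) in WT and 4.03 ± 0.15 (SD, n = 3) in cKO, a difference of -0.04 (exact permutation p 0.9) whose sign turned without cKO 3 (0.04). Adjusted over the 4 ratios by the Benjamini-Hochberg method, the exact permutation p was 0.8 for cytochrome c, 0.4 for Cox6b, 0.4 for Cox7b and 0.9 for Cox8. The 4 pairs thus differed in sign, with 2 differences above 0 and 2 below.

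**Figure D3:**
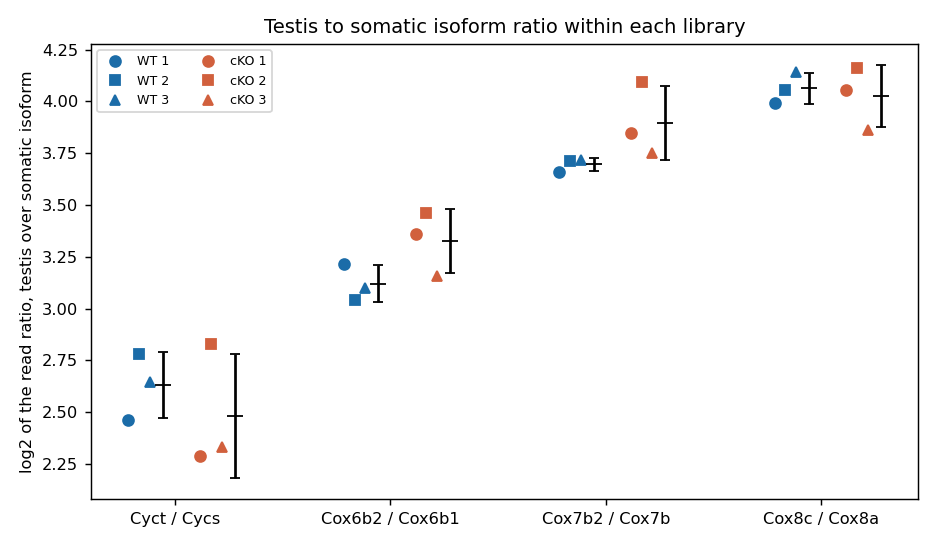
Log2 of the ratio of reads of the testis isoform to reads of the somatic isoform within each library, for the 4 pairs, in WT (blue) and cKO (orange). Black bars are the mean and SD of 3 libraries. cKO 2 (orange square) has the highest ratio of the 6 libraries in each pair, from 7.10 for Cyct to Cycs up to 17.9 for Cox8c to Cox8a.

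Single libraries took the ends of the range for several members together. cKO 2 held the lowest level of all 4 somatic isoforms and of 0 of the 4 testis isoforms, and so the highest ratio in 4 of 4 pairs. In that library Cycs was 0.31, Cox6b1 0.30, Cox7b 0.42 and Cox8a 0.21 below its mean over the 6 libraries on the log2 scale. cKO 2 also had the largest share of reads in no annotated exon on the counted strand (6.94%, against 4.98% to 6.65% in the others). Its summed level of elongating spermatid markers was the lowest (13814 CPM, against 15910 to 17857 CPM). Leydig cell markers were lowest there too, at 763 CPM against 834 to 995 CPM. The part of these values in the ratios was not tested.

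WT 2 held the highest level of 4 of the 8 members: Cyct, Cox7b2, Cox7b and Cox6b1. There Cox7b was 0.51, Cox7b2 0.42 and Cyct 0.28 above its mean over the 6 libraries on the log2 scale, and these 3 genes were lower in cKO 1 than in any WT library. The longest transcripts of the 3 have a GC content of 36.7% (Cox7b2), 42.0% (Cox7b) and 42.3% (Cyct), against 48.7% to 58.5% for Cox8c, Cox6b1, Cox6b2 and Cox8a. Cycs, at 40.8%, was 0.05 above its mean in WT 2. Cox6b1, at 51.0%, was 0.17 above its mean there, and it too was lower in cKO 1 than in any WT library. Without WT 2 the log2 fold changes were -0.14 for Cyct, -0.10 for Cox7b2 and -0.30 for Cox7b. After a correction of each library for GC content and transcript length, also added later, they were -0.06, -0.07 and -0.30. With this correction the other 5 members were at -0.06 (Cox6b1), -0.01 (Cycs), 0.12 (Cox6b2), 0.06 (Cox8c) and 0.04 (Cox8a).

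**Figure D4:**
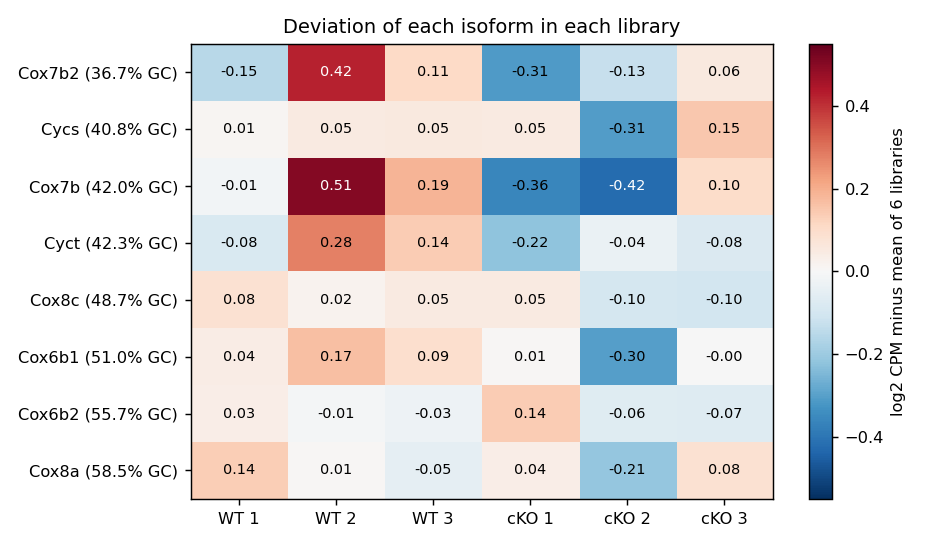
Deviation of each isoform in each library from its mean log2 CPM over the 6 libraries, with genes ordered by the GC content of their longest transcript. Red is above and blue below the mean. WT 2 is 0.42 above for Cox7b2 and 0.51 above for Cox7b, and cKO 2 is 0.21 to 0.42 below for the 4 somatic isoforms.

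Among cell type markers, 9 lists were summed in each library, and the groups did not overlap for 3 of them. Of single genes, 18.9% of all tested did not overlap. Pachytene to diplotene spermatocyte markers summed to 1224 to 1279 CPM in WT and 1288 to 1324 CPM in cKO. Round spermatid markers summed to 1361 to 1374 CPM in WT and 1211 to 1329 CPM in cKO, and endothelial markers to 39.8 to 40.9 CPM and 41.9 to 50.9 CPM. Genes within the spermatocyte list and within the round spermatid list did not all go the same way, while the endothelial markers did. Log2 fold changes were above 0 for 4 of 6 spermatocyte, 1 of 7 round spermatid and 5 of 5 endothelial markers. Taken singly, 0, 1 and 2 genes of these lists had groups without overlap. Spermatogonial (124 to 147 CPM in WT, 128 to 145 CPM in cKO) and Sertoli markers (180.2 to 207 CPM in WT, 183 to 219 CPM in cKO) overlapped. Testis isoforms belong to the meiotic and later germ cells and somatic isoforms also to the other cells. The part of these marker levels in the isoform values was not tested.

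The other genes of complex IV were compared in the same fit, and DESeq2 called none of those for which it gave an adjusted p, 9 of the 12 nuclear subunits, 13 of the 22 assembly factors and 4 of the 5 cytochrome c partners among them. Of 12 nuclear subunits with no testis isoform among the members, 10 were tested and 0 passed the threshold. Their log2 fold changes were all below 0, from -0.45 to -0.09 with a median of -0.19. That median was -0.12 after the correction for GC content and transcript length and -0.13 without cKO 2. The groups did not overlap for 3 of the 10, each lower in cKO, against 8.85% of all genes. At an unadjusted p under 0.05 there were 5, again lower in cKO, where 6.54% of all genes were. Cox7a2l had 36.9 ± 0.716 CPM (SD, n = 3) in WT and 32.4 ± 1.48 CPM (SD, n = 3) in cKO (log2 fold change -0.19, edgeR adjusted p 0.306). Cox4i1, a nuclear subunit in contact with the catalytic core, had 329 ± 19.2 CPM (SD, n = 3) and 279.5 ± 34.0 CPM (SD, n = 3) (log2 fold change -0.24, edgeR adjusted p 0.307). Cox7a2 had 204 ± 17.0 CPM (SD, n = 3) and 171 ± 21.9 CPM (SD, n = 3) (log2 fold change -0.26, edgeR adjusted p 0.307). For Cox4i1 and Cox7a2, as for the somatic isoforms of the pairs, cKO 2 was the lowest library, at 246 and 146 CPM. Without cKO 1, Cox4i1 passed the threshold, in a fit that called 628 of 22255 genes, 79 of them lower in cKO. The fit without a filter on low counts, which called 757 of 36605 genes, called Cox7a2 and Ndufa4 of this list, both lower in cKO. Cox4i2 and Cox6a2 had too few reads to be tested.

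Of the mitochondrially encoded core subunits only mt-Co1 had reads, and mt-Co2 and mt-Co3 are listed at 0 in every library. Every cell uses these genes, and the files do not tell why they are listed at 0, so no level is given for them. The level of mt-Co1 was 733, 1201 and 588 CPM in WT and 677, 1124 and 1321 CPM in cKO, so the groups overlapped, with WT 3 lowest and cKO 3 highest. As for every gene, reads that map to several places are not in this count. How many such reads mt-Co1 lost was not tested. The log2 fold change was 0.31 (SE 0.25, edgeR adjusted p 0.606). It was 0.10 without WT 3 and 0.10 without cKO 3, and 0.66 without WT 2 and 0.54 without cKO 1. In the fit without a filter on low counts mt-Co1 was called, higher in cKO. That fit called 757 of 36605 genes, 354 of them higher in cKO. The spread of mt-Co1 between libraries was wider than that of any of the 8 isoforms.

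Of 22 complex IV assembly factors, 21 were tested and 0 passed. There were 8 above and 13 below 0 with a median of -0.07, and at an unadjusted p under 0.05 there were 3 of 21, each lower in cKO, where 6.54% of all genes were. The groups did not overlap for 5 lower and 1 higher in cKO, against 18.9% of all genes in either direction. Pet100, a chaperone of the assembling enzyme, had 25.0 ± 2.80 CPM (SD, n = 3) in WT and 19.6 ± 2.77 CPM (SD, n = 3) in cKO (log2 fold change -0.35, edgeR adjusted p 0.288). It passed in the fit without a filter on low counts, which called 757 of 36605 genes, 403 of them lower in cKO. Coa3, which acts on the newly made core subunit, had a log2 fold change of -0.21 (edgeR adjusted p 0.310), and Coa6, a factor for copper delivery, one of -0.25 (edgeR adjusted p 0.325). Pet117 had no reads.

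Genes that handle cytochrome c itself were tested as a list of 5, and 0 passed. At an unadjusted p under 0.05 there were 0, against 13.9% of all genes. The groups did not overlap for 1 of the 5, against 18.9% of all genes. Apaf1, the apoptotic partner of cytochrome c, had 6.26 ± 0.257 CPM (SD, n = 3) in WT and 6.97 ± 0.326 CPM (SD, n = 3) in cKO, without overlap (log2 fold change 0.16, edgeR adjusted p 0.480). Cyc1, the complex III subunit that hands electrons to cytochrome c, had a log2 fold change of -0.06 (edgeR adjusted p 0.852).

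Other energy genes with a germ cell isoform gave 0 calls among 5 germ cell isoforms and 0 among 6 somatic counterparts, with medians of 0.00015 and -0.08. At an unadjusted p under 0.05 there was 1 of the 5 germ cell isoforms, Pgk2, lower in cKO, and 0 of the 6 somatic counterparts, against 13.9% of all genes in either direction and 6.54% lower. Pgk2, the germ cell phosphoglycerate kinase, had 1192 ± 45.9 CPM (SD, n = 3) in WT and 1061 ± 96.0 CPM (SD, n = 3) in cKO (log2 fold change -0.17, edgeR adjusted p 0.352). Ldhc, the germ cell lactate dehydrogenase, had a log2 fold change of -0.09 (edgeR adjusted p 0.560), and Gapdhs, the germ cell glyceraldehyde phosphate dehydrogenase, one of 0.10 (edgeR adjusted p 0.587). On the somatic side Pgk1 and Pdha1 had log2 fold changes of -0.22 and -0.13 (edgeR adjusted p 0.378 and 0.552), and Slc25a4 had -0.09 (edgeR adjusted p 0.654).

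**Figure D5:**
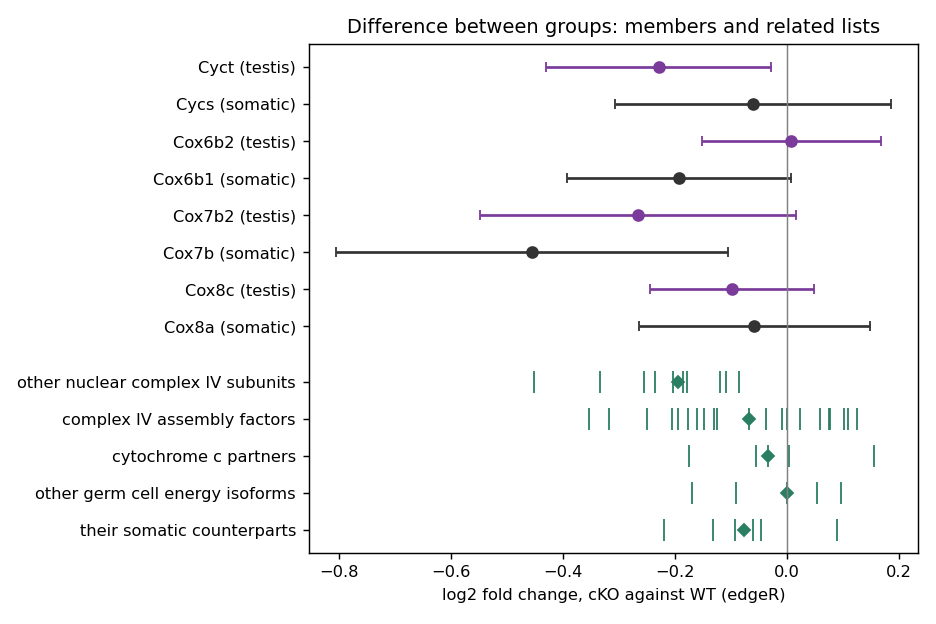
Log2 fold change of cKO against WT from edgeR. Upper rows show the 8 isoforms with 95% limits (purple testis, black somatic); lower rows show each tested gene of the related lists as a tick and the list's median as a diamond. The isoforms run from -0.45 (Cox7b) to 0.01 (Cox6b2), and the 10 other nuclear complex IV subunits all lie below 0.

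For each testis isoform the genes with the most similar course over the 6 libraries were sought among the 10045 genes that averaged 10 CPM or more. The measure was Pearson's correlation of log2 CPM, given as a description: with 6 points and so many genes, high values arise readily, and the points share depth and library composition. Cyct was closest to Abhd18 (0.993) and Rbl2 (0.993), and Cox7b2 to Cisd2 (0.997) and the lincRNA Gm20268 (0.994). Cox8c was closest to Tex22 (0.993) and Dap3 (0.993), and Cox6b2 to Exosc2 (0.991) and Khdrbs3 (0.990). The number of genes above 0.95 was 151 for Cyct, 148 for Cox7b2, 69 for Cox8c and 28 for Cox6b2.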

How the data were processed

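The deposited files hold raw counts of reads per gene, 1 file per library, in the layout of STAR gene counts; the submitters' processing notes list STAR, HTSeq, DESeq2 and the build mm10, and the labels give single-end reads of 75 bases. Counts on the opposite strand (96.0% to 96.2% of both strand columns) were used. Lines outside single genes (14.8% to 16.7% of reads) were left out. GENCODE M21 matched 52147 of 53700 identifiers. The 1553 others held 0.180% of reads.

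edgeR 4.0.16 in R 4.3.3 was used with TMM scaling, filterByExpr (minimum count 10) and a quasi-likelihood F test without covariates, adjusted by Benjamini-Hochberg over 21902 genes. CPM use TMM-scaled library sizes. Standard errors come from the F statistic. Windows of 75 bases from each member's longest transcript were compared with all M21 transcripts on both strands. Coding sequences were aligned with Biopython 1.88. The fit was tested on simulated data. Genes were named by a fixed rule: the 8 members, the 3 lowest p of each pathway list, and the 2 genes most like each testis isoform; 1 gene so chosen is not reported here. Members and lists were chosen with earlier results of these data known.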

Additional observations from a re-analysis of the deposited data

How the results depend on the processing

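None of the 8 members passed the edgeR threshold in 14 of the 15 alternatives, the exception being the fit without a filter on low counts (Cox7b and Cox7b2). The GC content and transcript length correction and the longest-transcript lengths were added with the data already seen. The number of genes past the threshold, 4 of 21902, was 757 of 36605 without the filter and 2 of 22460 with unstranded counts. It was 209 of 11711 with DESeq2, which gave none of the 4 an adjusted p. Without each library in turn it was 1 to 628. The highest number was that without cKO replicate 1 (549 higher, 79 lower, of 22255 genes), and it was 116 of 22392 without WT replicate 1. Across genes, the deviations of WT and cKO libraries 1, 2 and 3 from their groups correlated at 0.35, 0.26 and -0.05 between equal numbers, and WT 3 correlated best with cKO 2 (0.11). The numbers were therefore not treated as a pairing. A replicate block gave 49 calls among 21902 genes, with no member among them. Pairing left the 4 ratio differences as they were. Its test was another one, an exact sign-flip test of the differences between equal numbers, with p of at least 0.25, the smallest it allows. Log2 fold changes turned sign for Cycs without cKO replicate 2 (0.061), for Cox8a there (0.026) and with the correction (0.040), for Cox8c with the correction (0.056), and for Cox6b2 with library totals (-0.020), without a filter (-0.0014), with at least 10 reads in every library (-0.00033), without WT replicate 3 (-0.015) and with cKO replicate 1 left out (-0.066). Over the libraries left out in turn Cycs ran from -0.15 to 0.061, Cox8a from -0.11 to 0.026 and Cox6b2 from -0.066 to 0.045. The ratio of Cox8c to Cox8a turned with the correction (0.018), without cKO replicate 3 (0.045) and without WT replicate 3 (0.0016). Over the fits without each library, ratio differences ran from -0.32 to -0.05 for Cyct to Cycs, 0.14 to 0.29 for Cox6b2 to Cox6b1, 0.10 to 0.27 for Cox7b2 to Cox7b and -0.10 to 0.045 for Cox8c to Cox8a. With the longest transcript, per-length ratios in WT were 9.20 for Cox6b2 to Cox6b1, 23.9 for Cox7b2 to Cox7b (29.0 with merged exons) and 20.1 for Cox8c to Cox8a (22.6). For none of these was the cause tested. The named Cycs pseudogenes held 0 or 1 reads each in a library, against 421 to 702 for Cycs. Adding reads so few could not move the Cyct to Cycs difference, which stayed at -0.15. It does not check the reads that map to several places, which are counted to no gene.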
